A study of Danio rerio with 12 samples.

Results

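Laminins are large cross-shaped proteins of the basement membrane, the sheet of extracellular matrix under epithelia and around muscle, notochord, lens and vessels, and each is a trimer of an alpha, a beta and a gamma chain. In zebrafish, *lama1* encodes the alpha1 chain and *lamb1a* a beta1 chain of the laminin that is laid down first in the embryo. Mutants of either gene have notochord defects and a short body axis, and eye defects and misrouted axons are known in mutants of *lama1*. Both chains were measured on whole larvae of the wild-type AB strain by one-color oligonucleotide arrays. A target, which is 1 transcript or predicted transcript of the array, was taken as a member when its RefSeq identifier maps to either symbol. This gave 2 of 37157 targets, 1 per gene, and 24 of 385000 probes, 12 per gene.

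All 4 groups were wild-type larvae from pools of 50 embryos, and each pool was 1 sample on its own array, with 3 arrays per group and 12 in all. The control larvae were raised in water with 0 ppb Pb and the Pb-treated larvae in 100 ppb Pb given as lead acetate, in both cases from about 1 hr postfertilization (hpf) until collection at 72 hpf or 120 hpf. A whole-larva value holds every cell type at once, so fewer laminin-secreting cells and less laminin RNA per cell cannot be told apart. The label of whole larvae was checked against markers of muscle, lens, neurons, blood and vessels, and liver and intestine, which had 13 named targets in all. The mean log2 intensity of each list lay between 11.3 and 14.7 on every array, and epidermis had 0 named targets among 9 listed genes. Median intensities ran from 376 to 669.9 over the arrays, and an array's mean correlation with the others of its group from 0.914, for the Pb array of replicate 1 at 72 hpf, to 0.984. Names were available for 2663 targets (7.17%), so 12 of the 14 laminin genes listed, the gamma chains among them, are not analysed here.

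The 2 targets are among the longest of the array, and their probes are spread along the whole transcript. The probes of *lama1* start at nucleotides 234, 799, 1939, 2352, 3037, 3609, 4277, 5591, 6491, 7414, 8276 and 9223 of the target, and 99.9% of targets have a last probe at a lower position. Those of *lamb1a* start at nucleotides 148, 544, 1198, 1685, 2485, 2741, 3283, 3357, 3434, 3918, 4702 and 5293, and 99.0% of targets end earlier. In the current RefSeq annotation *lamb1a* lies next to *lamb4*, another laminin beta chain gene. Levels are given as log2 of the normalized intensity, averaged over the 12 probes of a target. Probes differ in how well they bind, so the level of one gene is not set against that of the other.

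At 72 hpf both chains had lower mean signals in Pb-treated than in control larvae, and neither difference passed the test. *lama1* was at 7.88, 8.32 and 8.65 on the control arrays of replicates 1, 2 and 3, and at 6.58, 7.58 and 7.92 on the Pb arrays. The groups overlapped by 1 pair of arrays, since the Pb array of replicate 3 was slightly above the control array of replicate 1. The means were 8.28 ± 0.386 and 7.36 ± 0.698 (SD, n = 3 arrays each), a 1.89-fold lower signal with Pb (log2 fold change -0.92, standard error 0.387, 95% confidence interval -1.76 to -0.08, adjusted p = 0.999 from limma over all targets). *lamb1a* was at 11.88, 11.81 and 11.76 in controls and at 11.26, 11.70 and 11.45 with Pb, where every Pb array lay below every control array. Its means were 11.82 ± 0.0624 and 11.47 ± 0.218, a 1.27-fold lower signal (log2 fold change -0.35, standard error 0.212, 95% confidence interval -0.81 to 0.11, adjusted p = 0.999 from limma). limma called 0 of the 2 genes and 0 (0%) of all targets here, as did the methods' t-test after Benjamini-Hochberg adjustment. At an unadjusted p under 0.05 limma took 566 targets (1.52%), *lama1* among them and *lamb1a* not. Groups that did not overlap, with Pb lower, were found for 1.92% of all targets, and a log2 fold change as low as that of *lama1* for 1.19% and as low as that of *lamb1a* for 11.5%.

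**Figure D1:**
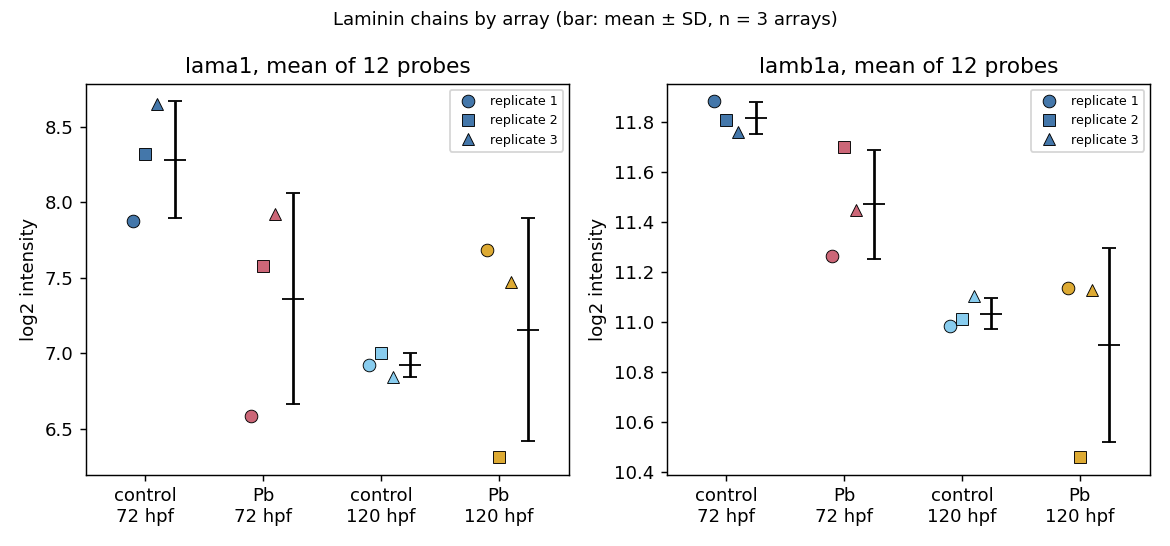
Log2 intensity (vertical axis, mean of 12 probes) of *lama1* (left) and *lamb1a* (right) on each array of the 4 groups, with the marker shape giving the replicate number and the bar giving the mean ± SD (n = 3 arrays). At 72 hpf the 3 Pb arrays of *lamb1a* lie below the 3 controls and those of *lama1* overlap them, and at 120 hpf the Pb array of replicate 2 is the lowest of all 12 for each gene.

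Read by replicate number, *lama1* was lower with Pb in each of the 3 pairs of 72 hpf, a pair being the control and the Pb array of 1 number. Pairing by number was not borne out throughout by the data at 72 hpf, and results by pair depend on it. Its log2 ratios of Pb over control were -1.30, -0.74 and -0.72 for numbers 1, 2 and 3. A ratio at least 1.5-fold lower in all 3 pairs, which is one of the study's criteria for an altered gene, was met by *lama1* and by 81 targets in all (0.218%). The other criterion, the methods' t-test at p of at most 0.1 with a 1.5-fold mean change, was not met by *lama1* and was met by 0.657% of targets in either direction. *lama1* is among the genes that the study lists as altered on these samples. Neither its direction nor its meeting a criterion here is therefore independent evidence. The study worked from RMA gene calls and not from the probe means used here. The log2 ratios of *lamb1a* were -0.62, -0.11 and -0.31, below 0 in all 3 pairs, as for 10.5% of all targets, and it met neither criterion. Number 1 gave the lowest ratio of both genes. When the Pb array of that number was left out, *lama1* was at a log2 fold change of -0.53 and *lamb1a* at -0.24.

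The lower mean *lama1* signal at 72 hpf was seen at all 12 probes, though not in every pair. Below 0 were 11, 12 and 10 probe ratios in numbers 1, 2 and 3. Number 3 was at 0.96 at nucleotide 234 and at 0.24 at nucleotide 8276. *lama1* is a dim target. Of all targets, 16.7% to 36.0% were at or below it on the Pb arrays of 72 hpf, and 36.1% to 46.8% on the controls. In the fit of single probes, all 12 log2 fold changes of *lama1* lay below 0, from -1.64 at nucleotide 1939 to -0.34 at nucleotide 9223, with a median of -0.86, where 48.3% of all probes lay below 0. The probes of 1 transcript share their arrays and RNA and are not replicates of each other. At nucleotide 1939 the signal was 7.53, 7.43 and 6.89 in controls and 5.85, 5.99 and 5.08 with Pb. These groups were well apart, and the ratios of the 3 numbers were alike (-1.68, -1.43 and -1.81). The probe is the most extreme of the 12, and its Pb mean of 5.64 was the dimmest of *lama1* at 72 hpf. At nucleotide 9223, the probe nearest the end of the transcript, the signal was 10.34, 10.07 and 10.22 in controls and 10.35, 9.72 and 9.54 with Pb, with the Pb array of replicate 1 at the level of its control. Pb arrays lay below all controls at 4 of the 12 probes (nucleotides 799, 1939, 3037 and 6491), against 2.34% of all probes. The probe at nucleotide 4277 varied most between numbers, with ratios of -1.61, -0.06 and -3.01. limma called 0 of the 12 probes and 0 (0%) of all probes.

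For *lamb1a* at 72 hpf the mean log2 fold changes were lower at the upstream probes, those before the midpoint between the first and the last probe, than at the downstream probes. All 5 upstream probes had log2 fold changes between -0.95 and -0.66, whereas the 7 downstream probes held all 4 values above 0, up to 0.21 at nucleotide 4702. At nucleotide 148, the first probe, the signal was 12.08, 12.28 and 12.51 in controls and 10.05, 11.95 and 12 with Pb. Every Pb value was below every control there, and the ratio of number 1 was the lowest (-2.02, -0.33 and -0.51). Every Pb array lay below every control at 2 of the 12 probes, against 2.34% of all probes. These were the first one and the downstream probe at nucleotide 3283 (ratios -0.15, -0.49 and -0.58). The downstream probe at nucleotide 3918 was also lower in all 3 numbers (-0.19, -0.39 and -0.61). At nucleotide 5293, the last probe, the ratios were 0.50, -0.40 and 0.29, of both signs. Averaged over probes, the log2 fold change was -0.78 upstream and -0.03 downstream for *lamb1a*. For *lama1* it was -1.05 upstream and -0.73 downstream. The upstream *lama1* probes were dim, with a mean of 7.57 in controls and 6.52 with Pb. A further loss of signal might not register there, so the profiles of both genes are not set against each other. By number, *lamb1a* was at -1.46, -0.16 and -0.73 upstream and at -0.02, -0.08 and -0.01 downstream, so number 2 differed little between them. limma called 0 of the 12 *lamb1a* probes and 0 (0%) of all probes.

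**Figure D2:**
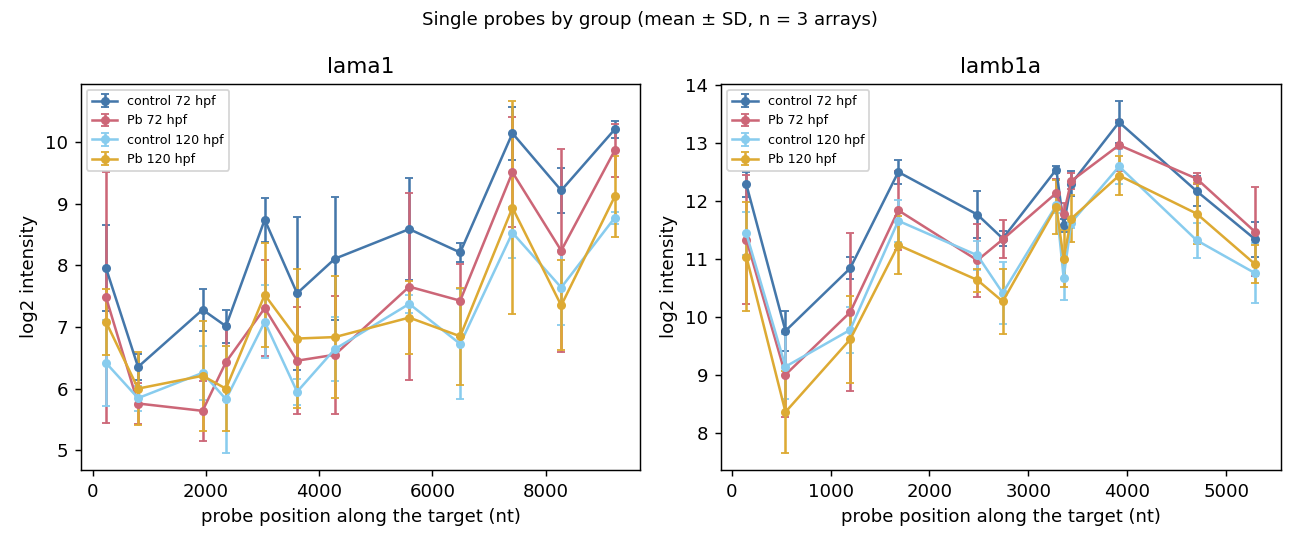
Log2 intensity of each probe (vertical axis) against its start position along the target in nucleotides (horizontal axis) for *lama1* (left) and *lamb1a* (right), as group mean ± SD (n = 3 arrays). The Pb line of 72 hpf runs below the control line at all 12 *lama1* probes, and for *lamb1a* it is below the control at the 5 upstream probes and on either side of it downstream, with differences from -0.41 to 0.21.

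The difference between downstream and upstream probes, called the gradient here, was tested in its own limma fit over the 31266 targets with at least 8 probes. The gradient of *lamb1a* at 72 hpf was 0.80, 0.60 and 0.59 in controls and 2.24, 0.68 and 1.32 with Pb. The Pb arrays of replicates 1 and 3 stood above all controls, and that of replicate 2 lay within their range. The means were 0.66 ± 0.117 and 1.41 ± 0.787, and the gradient was not called different (difference 0.75, standard error 0.365, 95% confidence interval -0.04 to 1.54, adjusted p = 1.00 from limma). The gradient of *lama1* was 1.88, 1.77 and 1.46 in controls and 1.79, 2.04 and 2.25 with Pb, with overlapping groups and a difference of 0.32 (standard error 0.297). Its upstream probes were dim, so it is not set against the gradient of *lamb1a*. limma called 0 (0%) of all gradients at 72 hpf, and 54.8% of them were higher with Pb.

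Long transcripts as a class stood apart on 2 of the Pb arrays. Of the 461 targets whose last probe lies at nucleotide 5000 or beyond, 88.1% had a log2 fold change below 0 at 72 hpf, with a median of -0.45, against 0.04 over all targets. Their median ratios were -0.91, -0.16 and -0.24 for numbers 1, 2 and 3. *lama1* was lower than these medians in each pair, and *lamb1a* was higher in numbers 1 and 2. A lower log2 fold change than that of *lama1* was found for 61 of the 461 long targets, and a lower one than that of *lamb1a* for 279. The median gradient of the 366 long targets that had one was 1.27 on the Pb array of replicate 1 and 0.468 on its control. It was 0.325 against 0.169 for replicate 2, and 0.0872 against 0.175 for replicate 3. At 120 hpf the Pb array of replicate 2 stood apart in the same measure, at 1.1 against 0.244 on its control. The part of array and transcript length in the laminin values was not tested.

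At 120 hpf the Pb arrays of both chains spread widely around the controls, and the groups overlapped. *lama1* was at 6.92, 7.00 and 6.84 in controls and at 7.68, 6.31 and 7.47 with Pb. The Pb arrays of replicates 1 and 3 were above all controls and that of replicate 2 was below them. The means were 6.92 ± 0.0802 and 7.16 ± 0.737 (log2 fold change 0.23, standard error 0.387, 95% confidence interval -0.61 to 1.07, adjusted p = 1.00 from limma). *lamb1a* was at 10.98, 11.01 and 11.10 in controls and at 11.13, 10.46 and 11.13 with Pb. The same array, the Pb array of replicate 2, was the only one below the controls, and the other 2 were just above them. The means were 11.03 ± 0.0625 and 10.91 ± 0.387 (log2 fold change -0.13, standard error 0.212, 95% confidence interval -0.59 to 0.33, adjusted p = 1.00 from limma). limma called 0 of the 2 genes and 0 (0%) of all targets, and the methods' t-test 0 after adjustment. At an unadjusted p under 0.05 limma took 112 targets (0.301%), neither of the laminin genes among them.

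The ratios of the 3 numbers at 120 hpf were 0.76, -0.69 and 0.63 for *lama1* and 0.15, -0.55 and 0.02 for *lamb1a*. Number 2 was below 0 for both genes, and numbers 1 and 3 were above 0. The 461 long targets had median ratios of the same signs, at 0.19, -0.48 and 0.13. Of these long targets 67.9% had a log2 fold change below 0 at 120 hpf, with a median of -0.10. In number 2 the *lama1* ratio was -0.65 upstream and -0.74 downstream, and the *lamb1a* ratio was -1.29 upstream and -0.02 downstream. On the Pb array of number 2, 12.5% of all targets were at or below *lama1* and 77.1% at or below *lamb1a*. With *lama1* this dim, the profiles of both genes are not set against each other. The lowest single *lamb1a* probes of that number were those at nucleotides 544 (-2.17) and 148 (-1.55). The gradient of *lamb1a* at 120 hpf was 1.26, 0.23 and 0.66 in controls and 0.95, 1.5 and 1.30 with Pb, with a difference of 0.54 (standard error 0.365), and it was not called. With the Pb array of number 2 left out, *lama1* was at 0.65 and *lamb1a* at 0.10, the latter with its sign turned, and with that of number 1 left out *lama1* was at -0.030.

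**Figure D3:**
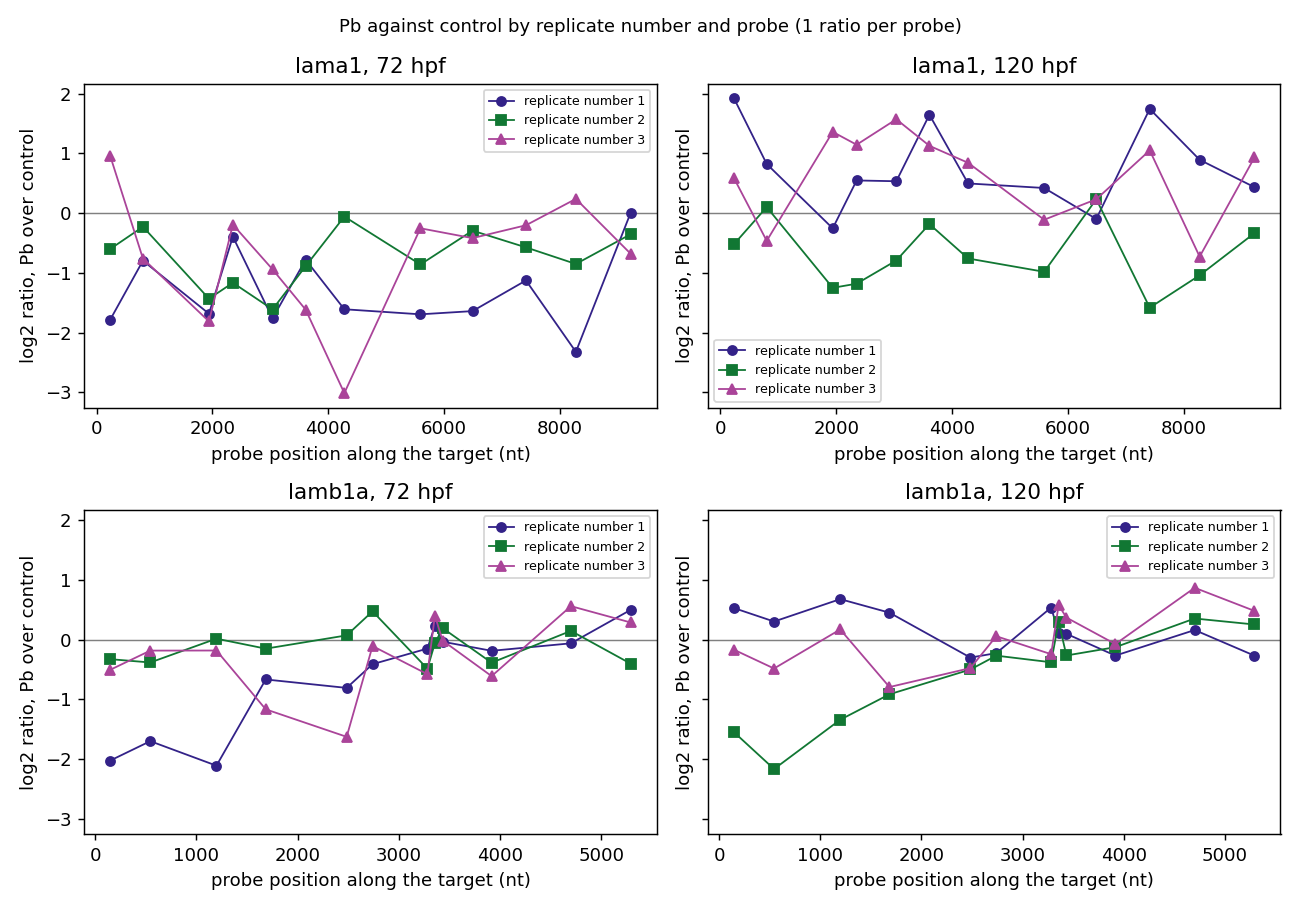
Log2 ratio of Pb over control (vertical axis) at each probe, against its start position along the target in nucleotides (horizontal axis), for *lama1* (top) and *lamb1a* (bottom) at 72 hpf (left) and 120 hpf (right), with 1 line per replicate number. At 72 hpf the lines of *lama1* lie mostly below 0 along the whole target, and number 1 of *lamb1a* rises from -2.02 at the first probe to 0.50 at the last. At 120 hpf number 2 is the lowest line at most probes of each gene.

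Whether the Pb effect differed between the time points was itself tested. The difference of the log2 fold changes, 120 hpf minus 72 hpf, was 1.15 for *lama1* (standard error 0.547, 95% confidence interval -0.03 to 2.34, adjusted p = 1.00 from limma). It was 0.22 for *lamb1a* (standard error 0.300, 95% confidence interval -0.43 to 0.87). Neither passed. Without the Pb array of number 1 of 72 hpf the differences were 0.76 and 0.12, without that of number 2 of 120 hpf 1.58 and 0.44, and without both 1.19 and 0.34. limma called 0 (0%) of all targets and took 75 (0.202%) at an unadjusted p under 0.05, without the laminin genes. Among the 461 long targets the median difference was 0.36 and 11.1% were below 0, against a median of -0.02 over all targets. A lower difference than that of *lama1* was found for 456 long targets, and a lower one than that of *lamb1a* for 154.

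Between 72 and 120 hpf in control larvae, both laminin chains were lower at the later stage, by more than the spread between arrays but just short of the threshold of an adjusted p of 0.05. The values of the control arrays are those given above, and for each gene every array of 120 hpf lay below every array of 72 hpf, as for 15.6% of all targets. The signal of *lama1* was 2.56-fold lower (log2 fold change -1.36, standard error 0.387, 95% confidence interval -2.20 to -0.52, adjusted p = 0.0708 from limma). That of *lamb1a* was 1.72-fold lower (log2 fold change -0.78, standard error 0.212, 95% confidence interval -1.24 to -0.32, adjusted p = 0.0568 from limma). limma called 0 of the 2 genes and 1765 targets (4.75%) in this comparison, 424 of them (1.14%) lower. Other settings put one or both genes past the threshold, with adjusted p between 4.69e-05 and 0.122 for *lama1* and between 0.000403 and 0.562 for *lamb1a*. Among the 461 long targets the median was -0.38, and 7 were lower than *lama1* and 70 lower than *lamb1a*.

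The stage difference in controls was seen at every probe of both transcripts. All 12 probes of *lama1* were lower at 120 hpf, from -1.66 at nucleotide 3037 to -0.51 at nucleotide 799 with a median of -1.48, and at all 12 the arrays of both stages were apart, against 11.3% of all probes. At nucleotide 9223 the control arrays of 120 hpf read 8.67, 8.81 and 8.85, more than 1 log2 unit below those of 72 hpf. All 12 probes of *lamb1a* were lower, between -1.06 and -0.59 with a median of -0.80, and 9 of them did not overlap. The change was -1.28 upstream and -1.46 downstream for *lama1* and -0.81 and -0.76 for *lamb1a*. The gradient differed by -0.18 for *lama1* (95% confidence interval -0.83 to 0.46) and by 0.05 for *lamb1a* (-0.74 to 0.85). limma called 0 of these 24 probes and 1.18% of all probes (smallest adjusted p of the 24, 0.0926).

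In Pb-treated larvae the same stages were compared on arrays of their own. *lama1* differed by -0.20 from 72 to 120 hpf (standard error 0.387, 95% confidence interval -1.04 to 0.64, adjusted p = 0.881 from limma), with overlapping groups. Its upstream probes differed by 0.12 and its downstream probes by -0.66. The gradient of *lama1* differed by -0.78 (standard error 0.297, 95% confidence interval -1.42 to -0.13, adjusted p = 0.868 from limma) and was not called. *lamb1a* was 1.48-fold lower at 120 hpf (log2 fold change -0.56, standard error 0.212, 95% confidence interval -1.02 to -0.10, adjusted p = 0.218 from limma), with groups that did not overlap, as for 6.98% of all targets. limma called 0 of the 2 genes and 1101 targets (2.96%). Among the 461 long targets the median was -0.01, and 126 were lower than *lama1* and 24 lower than *lamb1a*. The test of whether the stage change differed between Pb-treated and control larvae is the same as that of the Pb effect between stages, and it did not pass for either gene. Leaving out single Pb arrays moved *lama1* from -0.59, without replicate 1 of 72 hpf, to 0.22, without replicate 2 of 120 hpf, and it was also above 0 (0.078) without replicate 3 of 72 hpf. *lamb1a* stayed below 0, from -0.68 without replicate 1 of 120 hpf to -0.34 without replicate 2 of 120 hpf, and was at -0.67 without replicate 1 of 72 hpf. Without both arrays with the steepest gradients, *lama1* was at -0.17 and *lamb1a* at -0.44.

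In order of their means, *lama1* stood highest in controls of 72 hpf, then in Pb-treated larvae of 72 hpf, Pb-treated larvae of 120 hpf and controls of 120 hpf. The last 3 of these groups overlapped their neighbors, and the first overlapped the second by 1 pair of arrays. *lamb1a* stood highest in controls of 72 hpf, then in Pb-treated larvae of 72 hpf, controls of 120 hpf and Pb-treated larvae of 120 hpf. Here the 2 groups of 120 hpf overlapped and the other neighbors did not.

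Laminin acts through integrins and dystroglycan at the cell surface and through linker proteins inside the cell. Of 48 listed genes of this kind, 13 had a named target and are called measured here. The others may lie among the unnamed targets. At 72 hpf 8 of them were below 0 with Pb, as were 44.3% of all targets, and the other 5 above. Their median log2 fold change was -0.33 against 0.04 over all targets, and limma called 0 of the 13 and 0 (0%) of all targets. The median ratios of numbers 1, 2 and 3 were -0.42, -0.05 and -0.19. With the Pb array of number 1 left out, the median was -0.18 and 12 genes were below 0. The share of all targets below 0 was not taken without that array, so the count has no baseline. For replicate 2, the median was -0.22 without its control array and -0.50 without its Pb array. *itgb1b.1*, an integrin beta1 chain, differed by -0.45 (standard error 0.212, adjusted p = 0.999 from limma), and its ratios were -0.42, -0.34 and -0.58. Its highest Pb array (12.109) was just under its lowest control (12.111), and 1.92% of all targets had Pb arrays below all controls. Further integrin beta1 entries did not share this pattern. *itgb1b* had ratios of -1.31, 0.11 and 0.04, and *itgb1b.2* had 0.59, 0.00 and -0.53. The other 3 genes with the smallest p rested on number 1. *itgb1a*, another beta1 chain, had ratios of -1.83, -0.05 and -0.08. *itgav*, the integrin alphaV chain, had -1.82, -0.03 and -0.05. *ptk2aa*, a focal adhesion kinase that signals from integrins, had -2.23, -0.06 and -0.35. *itgb4*, the integrin beta4 chain of hemidesmosomes and itself a target past nucleotide 5000, had ratios of -0.91, -0.67 and 0.16.

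**Figure D4:**
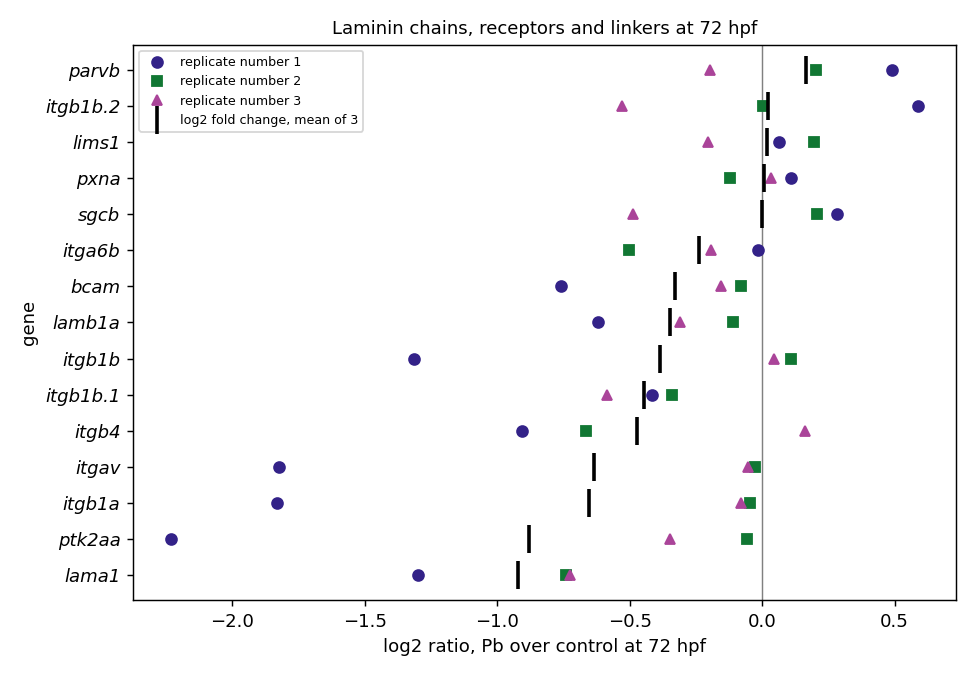
Log2 ratio of Pb over control at 72 hpf (horizontal axis) for *lama1*, *lamb1a* and the 13 measured laminin receptor and linker genes (vertical axis, ordered by the mean of the 3 ratios), with 1 marker per replicate number and a black bar for the mean. Number 1 lies far to the left for *ptk2aa*, *itgb1a* and *itgav*, whereas the 3 ratios of *itgb1b.1* lie between -0.58 and -0.34.

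At 120 hpf 9 of the 13 receptor and linker genes were below 0 with Pb (49.1% of all targets) and 4 above. The median was -0.13, and limma called 0 of the 13 and 0 (0%) of all targets. With the Pb array of number 2 left out, the median was 0.017 and 5 genes were below 0, where the share over all targets was not taken. From 72 to 120 hpf in controls 11 were below 0 (54.9% of all targets) and 2 above. The median was -0.31, and limma called 0 of the 13, against 4.75% of all targets. The gene nearest the threshold was *itgb1b*, an integrin beta1 chain, at -0.90 (standard error 0.280, adjusted p = 0.101 from limma). *itgb1b.2* and *pxna*, which encodes the focal adhesion adaptor paxillin, were the 2 above 0, at 0.59 and 0.36.

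Of the other listed genes around laminin, few had a named target and count as measured, and the rest may lie among the unnamed targets. Of 37 other basement membrane genes 1 was measured, *fbln1* for the matrix glycoprotein fibulin 1, with ratios of -1.11, -0.13 and 0.57 at 72 hpf. Of 27 matrix proteases and inhibitors 2 were measured, *htra1a*, a secreted serine protease, and *mmp23bb*, a matrix metalloprotease. *htra1a* was at -0.66 from 72 to 120 hpf in controls (adjusted p = 0.191 from limma). Of 27 notochord genes 2 were measured. *cav1*, for caveolin 1, and *col27a1b*, a fibrillar collagen of the notochord sheath, lay below 0 at 72 hpf on all 3 of their targets, from -0.50 to -0.15. So did 44.3% of all targets. For *cav1* the ratios of numbers 1, 2 and 3 were -0.13, 0.05 and -0.37 on 1 target and -0.55, -0.41 and 0.14 on another. For *col27a1b* they were -0.77, -0.71 and -0.02, and with stage in controls it was at -0.72 (adjusted p = 0.223 from limma). limma called 0 of these genes in any Pb comparison. Marker genes of other tissues were read in the same pairs of 72 hpf. Their median ratios in numbers 1, 2 and 3 were 0.06, 0.00 and -0.50 for skeletal muscle (3 of 18 genes) and -0.03, -0.03 and -0.58 for lens (5 of 16). They were -0.37, 0.04 and -0.41 for endothelium and blood (2 of 11). Here the endothelial cadherin *cdh5* had ratios of -0.75, -0.04 and -0.48, and the globin *hbae3* of 0.02, 0.12 and -0.34. For neurons (2 of 14) the median ratios were 0.17, 0.08 and -0.03, and the 1 measured gene of liver and intestine (of 10) was at 0.75, 0.54 and -0.30. The part of these tissues in the laminin values was not tested.

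The genes whose pattern over the 12 arrays came closest to each chain were different for the 2. Likeness was the root mean square difference of log2 values after centering each gene on its own mean, over 2662 other named targets. All points come from the same 12 arrays, and the last probes of the nearest targets lay between nucleotides 423 and 18483. For *lama1*, which itself varied by 0.680 around its mean, they were *ubtd1b* (0.301), *adgrv1* (0.320), *xkr5a* (0.330), *diaph3* (0.340) and *purbb* (0.340). For *lamb1a*, which varied by 0.406, they were *ppp1r26* (0.149), *glg1b* (0.161), *pbx4* (0.169), *emilin1b* (0.178) and *mpped2a* (0.180). The difference between the 2 laminin chains was 0.417, which put *lamb1a* at rank 43 for *lama1* and *lama1* at rank 675 for *lamb1a*.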

How the data were processed

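Total RNA of 12 pools was hybridized to one-color NimbleGen arrays. The authors deposited 1 linear intensity per probe and array after quantile normalization. The methods and the submitters' processing notes also name RMA (no version or genome build given in the sources used here), but the deposited table holds probes, not target summaries. Distributions of both arrays of a replicate number differed by at most 0.00902 (mean log2) and those of other arrays by 0.0838 to 0.966, so the deposited normalization held within pairs.

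Here log2 intensities of all 12 arrays were put on 1 distribution by quantile normalization, and each target's probes were averaged, with no further background subtraction and no filter on dim targets. limma 3.58.1 (lmFit, eBayes) in R 4.3.3 was fitted to the 4 groups, with 5 contrasts and Benjamini-Hochberg adjustment over all 37157 targets at 0.05. Separate fits were made on 385000 single probes and on gradients. Names came from the platform annotation (2626 targets) and RefSeq (37 targets). Genes named were both chains, up to 4 measured genes per list (smallest p first) and the 5 genes most alike. *itgb4*, *cdh5* and *hbae3* were chosen after their values were seen. The members and the lists were chosen with earlier results of these data known.

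Replicate numbers are the study's biological replicates, and 3 arrays per group limit the precision. Deviations from the group means correlated between arrays of the same number at 120 hpf (0.548, 0.434 and 0.268), where pairing by number was accepted on the basis of the data. They did not correlate throughout at 72 hpf (0.452, 0.402 and -0.069), where number 2 also reached 0.455 with an array of another number. The main fit left the replicate number out at both times, so its standard errors and intervals are unpaired. In a simulation of the 72 hpf comparison on 37157 targets, limma recovered 21 of 100 targets changed by 1 log2 unit and 86 of 100 changed by 2. Its noise was independent, with the same spread in all groups of a target and no effect shared within an array. The recovery on the real arrays may therefore differ. Alternatives were the deposited values, median centering, normexp, median polish, a filter on dim targets, a variance trend, array weights, only the arrays compared, the methods' t-test, a replicate block, probes near the end and each array left out. Upstream or downstream probes alone, both steepest Pb arrays left out, and gene lists with each array left out, were added after seeing the data.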

Additional observations from a re-analysis of the deposited data

How the results depend on the processing

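No alternative called either chain, or changed the direction of *lama1*, at 72 hpf with Pb. Leaving out single arrays gave -1.20 to -0.53 for *lama1* and -0.46 to -0.24 for *lamb1a*. At 120 hpf the ranges were -0.030 to 0.65 and -0.24 to 0.10, and for the difference of the Pb effects 0.76 to 1.58 and 0.11 to 0.44. *lamb1a* with Pb turned to 0.13 at 72 hpf and 0.15 at 120 hpf on probes within 500 nt of the last, where each chain has 1 probe. At 120 hpf it turned to 0.10 on downstream probes and to 0.10 without both steepest Pb arrays, where *lama1* was at 0.65. *lama1* with stage in Pb-treated larvae turned to 0.12 on upstream probes. No gradient of either chain was called, and with single arrays out the sign was not fixed for *lama1* with Pb at 120 hpf (-0.51 to 0.059), for *lama1* and *lamb1a* with stage in controls (-0.52 to 0.053 and -0.22 to 0.30), for *lamb1a* with stage in Pb-treated larvae (-0.53 to 0.25) or for *lamb1a* in the difference (-0.58 to 0.20). The cause was not tested.

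The stage calls depended on the setting. With stage in controls *lama1* passed at -1.71 on the deposited values (adjusted p = 0.0407), -1.43 on the last 500 nt (0.0261), -1.50 with array weights (4.69e-05, where the control array of replicate 3 at 120 hpf weighed 13.0 and no other over 1.84) and -1.36 with only the arrays compared (0.00505). *lamb1a* passed at -0.77 with normexp (0.0417), -0.71 with median polish (0.0372), -0.78 without the dimmest 25% (0.0474), -0.78 with a trend (0.0478), -0.71 with array weights (0.000403), -0.78 with only the arrays compared (0.0142) and -0.78 by the methods' t-test (0.0304). With single arrays out, neither was called (-1.56 to -1.17 and -0.82 to -0.75); with Pb they ran from -0.59 to 0.22 and -0.68 to -0.34.

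Targets called with stage in controls numbered 499 on deposited values (352 higher, 147 lower), 1082 with median centering (916 and 166), 13841 with array weights, 3542 with only the arrays compared (2201 and 1341), 596 and 5811 by the methods' t-test adjusted and at its own criterion, and 1062 on upstream probes. With Pb they numbered 366 on deposited values, 364 with only the arrays compared (329 and 35), 24 and 3481 by the t-test, and 694 upstream. Leaving out arrays gave 747 to 1550 and 580 to 1363. In controls 5 of the 6 arrays each took the count to 969 or less when left out (all but replicate 2 of 120 hpf, 1550), and with Pb only that of replicate 1 at 120 hpf moved it by over 1.5 times (580). The t-test criterion took 244 targets at 72 hpf (68 and 176) and 81 at 120 hpf (28 and 53). Gradients called with stage were 29 in controls (8 on deposited values and 9 as slopes) and 20 with Pb (4 and 0). With single arrays out they were 1 to 3 and 1 to 40, 0 to 1 at 72 hpf and 0 to 1 for the difference of Pb effects. With a replicate block, which changed no call, *lama1* at 72 hpf stayed at -0.92 (adjusted p = 0.800, limma), and 0 targets were called with Pb at either time.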
